A study of Arabidopsis thaliana with 12 samples.

Results

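Expansins and xyloglucan endotransglucosylase/hydrolases (XTHs), the genes of 2 families of wall-loosening and wall-remodelling proteins, were followed in seedlings of Arabidopsis thaliana that lack one or both of 2 chromatin regulators. A gene was included where a probe set annotated to a single gene carried a symbol or synonym of the form EXPA, EXPB, EXLA, EXLB or XTH with a number. It was kept where its mean signal over the arrays was at least 20 intensity units. The annotation named 29 such genes, each through 1 probe set, of which 25 were kept: 8 alpha expansins (EXPA), 4 beta expansins (EXPB), 3 expansin-like A genes (EXLA), 1 expansin-like B gene (EXLB) and 9 XTHs. The whole table holds 22810 probe sets. The RefSeq gene table lists 70 genes of these families, and the other 41, of which 3 share a probe set named with several genes, were not analysed here.

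The 4 groups were sdg8hub2 double mutants, sdg8 mutants, hub2 mutants and wild type (WT), with 3 arrays each. All were of the Columbia ecotype, 6-day-old seedlings, raised at 22 °C under days of 16 h light and nights of 8 h, and the design text calls the arrays of a group biological replicates from independent growth. SDG8 encodes a methyltransferase for histone H3, and HUB2 encodes a ubiquitin ligase for histone H2B. The labels name neither the alleles nor the number of lines, and the probe sets of SDG8 and HUB2 are unnamed in the annotation, so the loss of their transcripts was not checked. In RNA of seedlings, fewer cells of a type and less RNA per cell cannot be told apart.

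Expansins loosen the contact between cellulose microfibrils and the matrix glycans without cutting them, and growing plant cells need this to let the wall yield to turgor. XTHs cut xyloglucan, the main matrix glycan that coats cellulose, and rejoin the cut end to another xyloglucan chain or, in some members, to water. Both families are large, and single members are known for particular places: EXPA7, EXPA18 and XTH26 belong to root hairs. Beta expansins share the fold of alpha expansins, and expansin-like proteins hold both expansin domains but have no established wall-loosening activity.

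Signals are the intensities that the authors deposited, scaled so that each array had a trimmed mean of 500. Levels of different genes are not set against each other, since each probe set has its own response. Changes are differences of log2 intensity from limma fitted on all 12 arrays and 18196 probe sets, with Benjamini-Hochberg adjusted p over all of them, and "rose", "fell" and "changed" stand for an adjusted p under 0.05. Of the 25 genes, 24 passed the filter on low values (a mean of log2 values above that of 18.6 intensity units), and XTH26 did not. Arrays of a group correlated at 0.939 or more over the probe sets tested, with the lowest value between sdg8 arrays. Of 2 pairs of actin control probe sets, the first had a 3' minus 5' difference of 2.06 on hub2 replicate 2 and 1.00 to 1.53 on the other arrays, and the second ran between 2.08 and 3.77, with both ends on hub2 arrays.

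Of the 24 genes tested, 7 changed in sdg8hub2 against WT (29.2%), where 18.5% of all probe sets did. In sdg8 against WT 6 changed (25%), beside 14.3% of all probe sets, and in hub2 against WT 3 changed (12.5%), beside 2.85%. With the filter at the 50th percentile, 7, 6 and 3 of 18 genes were called in sdg8hub2, sdg8 and hub2. The shares of all probe sets were then 28.3%, 22.5% and 5.52%. The members were chosen with earlier results of these data known. The 7 changes of sdg8hub2 were 3 rises and 4 falls, with 8.01% of all probe sets higher and 10.5% lower. The 6 of sdg8 were 3 rises and 3 falls, with 6.41% and 7.86% of all probe sets, and the 3 of hub2 were 1 rise and 2 falls, with 1.40% and 1.46%. The split moved with the scaling: in sdg8 it was 5 rises and 2 falls after median centring and 5 and 3 after quantile normalization, and in hub2 it was 1 and 1 after median centring. In those fits 13.6%, 13.6% and 1.87% of all probe sets were called. The arrays of the 2 groups did not overlap in 9 of the 24 genes in sdg8hub2 against WT (35.1% of all probe sets), in 13 in sdg8 (31.6%) and in 6 in hub2 (21.3%). In all, 12 genes changed in at least 1 mutant against WT, 3 of them in more than 1 mutant (EXPA16, EXPA4 and EXPA18) and only EXPA16 in all 3. The matching shares over all probe sets were not counted, and these comparisons share the WT arrays. The median size of the log2 change was 0.41 in sdg8hub2, 0.41 in sdg8 and 0.23 in hub2, and over all probe sets it was 0.27, 0.24 and 0.18. Fitted without the intensity trend in the variances, 15 of the 34 calls of single genes over all comparisons did not pass.

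**Figure D1:**
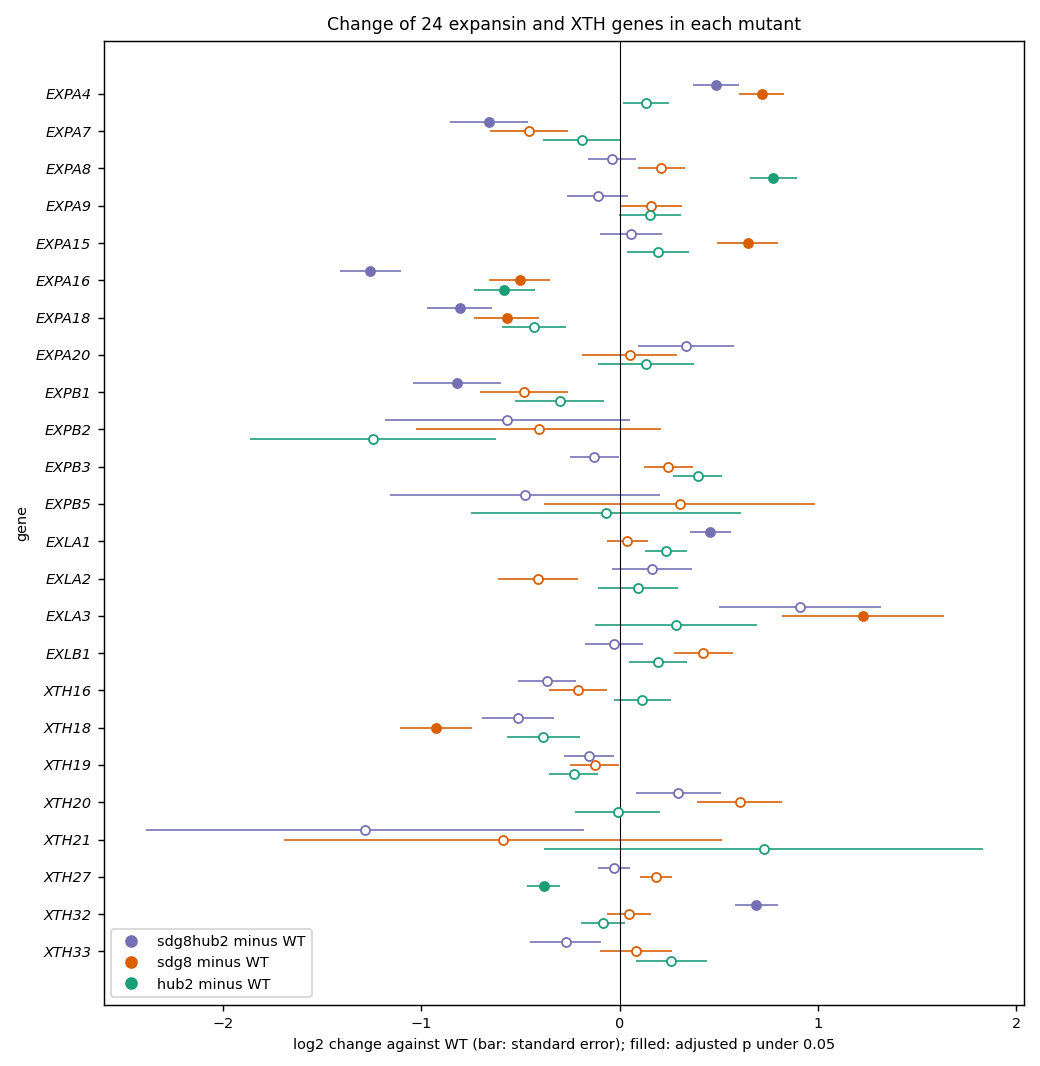
Log2 change against WT for the 24 genes tested, with 1 row per gene and 1 point per mutant (bars: standard error; filled points: adjusted p under 0.05). EXPA16 lies left of 0 with filled points in all 3 mutants, EXPA8 is filled only for hub2 and XTH32 only for sdg8hub2; the wide bars belong to EXPB2, EXPB5 and XTH21, whose signals were low.

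Among the alpha expansins, EXPA16 (AT3G55500) fell in every mutant and fell furthest in the double mutant. Its signal was 212, 157 and 201 intensity units in sdg8hub2, 346, 332 and 279 in sdg8, 317, 260 and 330 in hub2, and 480, 404 and 470 in WT. The double-mutant arrays lay below all others, the single-mutant arrays overlapped each other, and the WT arrays lay above all the rest. The log2 change against WT was -1.26 in sdg8hub2 (SE 0.15, 2.39-fold, adjusted p = 4.37e-06), -0.50 in sdg8 (SE 0.15, adjusted p = 0.0313) and -0.58 in hub2 (SE 0.15, adjusted p = 0.0432). It was also lower in sdg8hub2 than in sdg8, by -0.75 (adjusted p = 0.00189), and than in hub2, by -0.68 (adjusted p = 0.00391). The single-mutant changes add up to -1.08, and the interaction, the double-mutant change minus that sum, was -0.17 (SE 0.22, adjusted p = 0.731). The fall in sdg8 did not pass without WT replicates 1 (log2 change -0.46) or 3 (-0.47) or sdg8 replicates 2 (-0.53) or 3 (-0.41), nor after median centring of the arrays (-0.44, adjusted p = 0.0762). Without the variance trend the adjusted p was 0.0654 in sdg8 and 0.131 in hub2. The fall in hub2 did not pass without any 1 of the WT or hub2 arrays or without sdg8 replicate 2, with log2 changes of -0.66 to -0.48 and adjusted p of 0.0527 to 0.18, and stood at -0.42 (adjusted p = 0.281) with the first actin pair as a covariate but at -0.58 (adjusted p = 0.0444) with the second, while the calls in sdg8hub2 passed in every setting tried.

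EXPA4 (AT2G39700) went the other way. Its signal was 1579, 1782 and 1592 in sdg8hub2, 1781, 1794 and 2258 in sdg8, 1382, 1129 and 1381 in hub2, and 1199, 1317 and 1032 in WT. All sdg8hub2 and sdg8 arrays lay above all WT arrays, while hub2 and WT overlapped. The means were 1651 ± 113.5, 1944 ± 271.5, 1297 ± 146 and 1183 ± 143.5 in the same order (SD, n = 3 each). EXPA4 rose 1.40-fold in sdg8hub2 (adjusted p = 0.00436) and 1.64-fold in sdg8 (adjusted p = 0.000153), and the log2 change in hub2 was 0.13 (SE 0.12, adjusted p = 0.658). It was higher in sdg8hub2 than in hub2 by 0.35 (adjusted p = 0.0388), a call lost without WT replicate 1 (0.35, adjusted p = 0.0502), without hub2 replicate 2 (0.26) or without sdg8hub2 replicates 1 (0.38), 2 (0.30) or 3 (0.38). Quantile normalization, a replicate block, array weights, the first actin covariate or no variance trend also lost it (adjusted p of 0.0501 to 0.131).

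EXPA15 (AT2G03090) rose against WT only in the sdg8 single mutant. The signal was 747, 737 and 794 in sdg8hub2, 1004, 1108 and 1337 in sdg8, 888, 631 and 1036 in hub2, and 783, 828 and 599 in WT. The sdg8 arrays lay above those of sdg8hub2 and WT, and hub2 replicate 3 lay above the lowest of them. The gene rose 1.57-fold in sdg8 against WT (adjusted p = 0.00614), while the log2 change in sdg8hub2 was 0.06 (SE 0.15, adjusted p = 0.850) and that in hub2 was 0.19 (SE 0.15, adjusted p = 0.626). In sdg8hub2 it was lower than in sdg8 by a log2 difference of -0.59 (adjusted p = 0.0118). The interaction was -0.78 (SE 0.22, adjusted p = 0.0339). Without WT replicate 3 the rise in sdg8 did not pass (0.50, adjusted p = 0.0521), and without sdg8 replicate 3 the difference of sdg8hub2 from sdg8 did not pass (-0.47, adjusted p = 0.0706). The interaction did not pass without WT replicate 3, sdg8 replicates 2 or 3, hub2 replicates 1 or 3, or any 1 of the sdg8hub2 arrays, with values of -0.81 to -0.63 and adjusted p of 0.0505 to 0.106. Without the variance trend none of these 3 calls passed, with adjusted p of 0.0687, 0.0893 and 0.172 in the same order.

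EXPA8 (AT2G40610) rose against WT only in the hub2 single mutant. Its signal was 554, 475 and 449 in sdg8hub2, 605, 545 and 600 in sdg8, 894, 748 and 957 in hub2, and 505, 495 and 512 in WT. Every hub2 array lay above every other array, the sdg8 arrays lay above those of WT, and the sdg8hub2 and WT arrays overlapped. EXPA8 rose 1.71-fold in hub2 against WT (log2 change 0.77, SE 0.12, adjusted p = 0.000546), with log2 changes of -0.04 (SE 0.12, adjusted p = 0.868) in sdg8hub2 and 0.21 (SE 0.12, adjusted p = 0.276) in sdg8. The double mutant was 1.76-fold lower than hub2 (adjusted p = 4.93e-05), and the interaction was -1.02 (SE 0.17, adjusted p = 0.000501). These 3 calls passed in every setting tried, those without hub2 replicate 2 included.

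**Figure D2:**
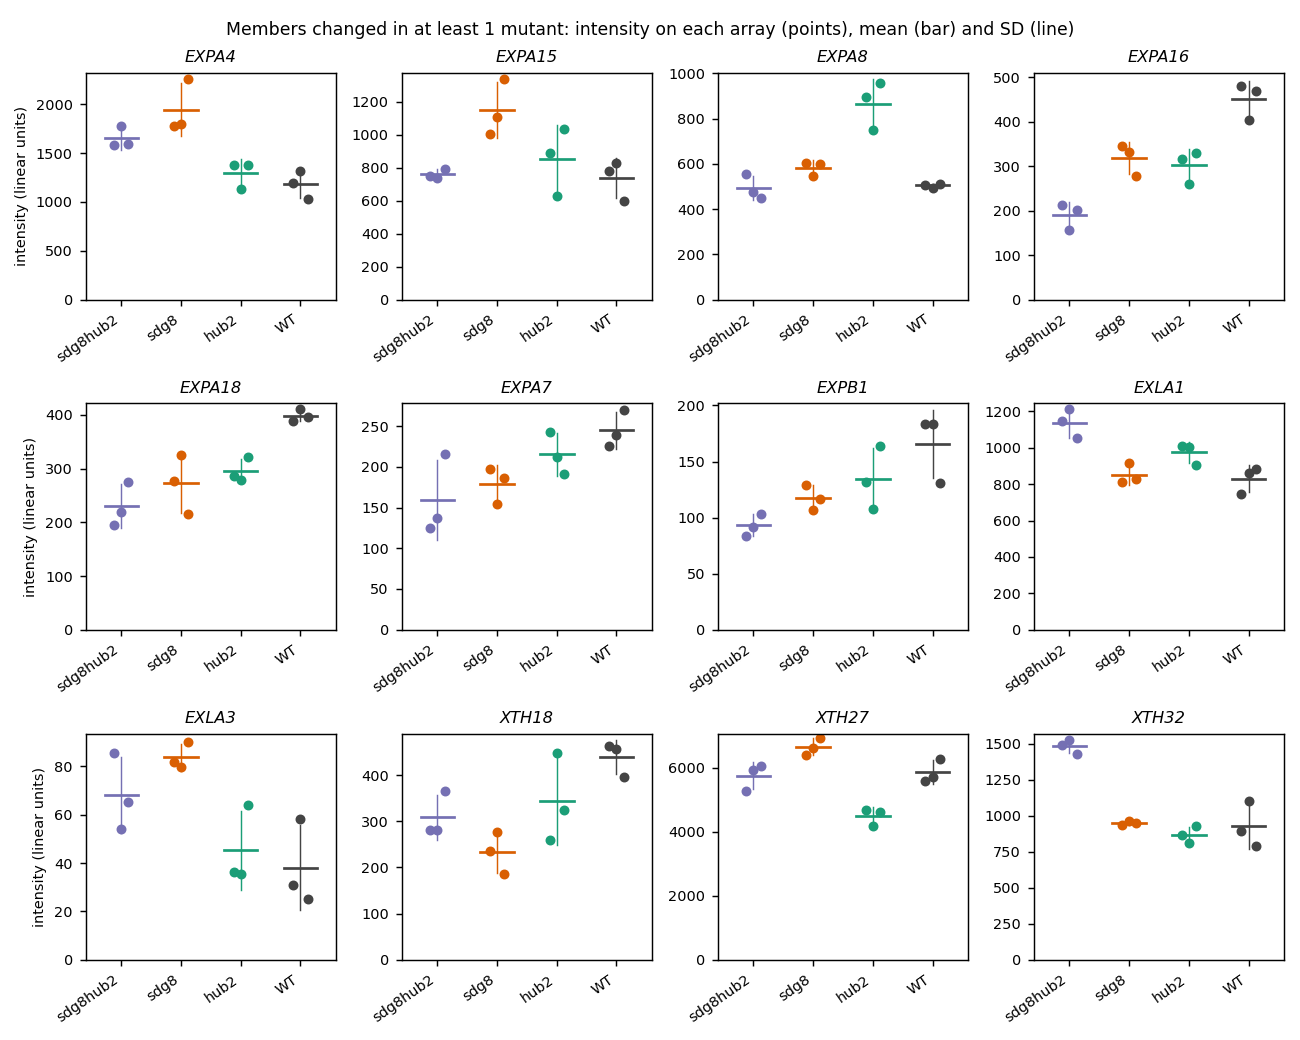
Intensity on each array (points), group mean (bar) and SD (vertical line) for the 12 genes that changed in at least 1 mutant against WT, on linear axes that start at 0. EXPA16 steps down to 212 or less on the double-mutant arrays, EXPA8 stands at 748 or more on the hub2 arrays only, and XTH32 at 1430 or more on the sdg8hub2 arrays only.

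Of the root-hair members tested, EXPA18 and EXPA7 both fell in sdg8hub2, EXPA18 fell in sdg8 as well, and neither changed in hub2. EXPA18 (AT1G62980) had 196, 220 and 275 intensity units in sdg8hub2, 277, 326 and 215 in sdg8, 287, 279 and 322 in hub2, and 389, 410 and 397 in WT. All 9 mutant arrays lay below all 3 WT arrays. It fell 1.75-fold in sdg8hub2 (adjusted p = 0.00108) and by a log2 change of -0.57 in sdg8 (adjusted p = 0.0205), and the log2 change in hub2 was -0.43 (SE 0.16, adjusted p = 0.184). EXPA7 (AT1G12560) had 125, 137 and 216 in sdg8hub2, 198, 154 and 186 in sdg8, 243, 212 and 191 in hub2, and 226, 239 and 270 in WT. It fell 1.58-fold in sdg8hub2 (adjusted p = 0.0216), and the sdg8 arrays lay below those of WT too, although the change of -0.46 missed the threshold (adjusted p = 0.138). The hub2 arrays overlapped WT, with a log2 change of -0.19 (SE 0.20, adjusted p = 0.741).

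XTH26 (AT4G28850), an XTH known from root hairs, had 4.05, 3.72 and 5.67 intensity units in sdg8hub2, 40.5, 7.22 and 7.16 in sdg8, 59.0, 8.41 and 6.2 in hub2, and 89.0, 93.0 and 89.6 in WT. Its mutant arrays lay below all WT arrays, and 7 of 9 of them lay below 18.6 intensity units, where folds are poorly determined. The means were 4.48 in sdg8hub2, 18.3 in sdg8, 24.5 in hub2 and 90.5 in WT, so XTH26 reached the signal limit of 20 mainly through WT, and its levels are given as a description with no test.

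Of 14 other root-hair entries listed as markers, only SCN1 (AT3G07880), known for its part in placing root hairs, is named in the annotation. It read 998 to 1241 intensity units in sdg8hub2, 1311 to 1426 in sdg8, 1074 to 1220 in hub2 and 1256 to 1350 in WT. SCN1 did not change against WT in any mutant and was lower in sdg8hub2 than in sdg8 (-0.31, adjusted p = 0.0366). Whether root hairs were fewer, or held less of these transcripts, was not tested. The fall of EXPA18 in sdg8 did not pass without WT replicates 1 (-0.59), 2 (-0.55) or 3 (-0.57) or sdg8 replicate 3 (-0.41). Without the variance trend the adjusted p was 0.0586 for this fall and 0.0563 for that of EXPA7 in sdg8hub2. The fall of EXPA7 in sdg8hub2 did not pass without WT replicates 2 (-0.68) or 3 (-0.59) or sdg8hub2 replicates 1 (-0.51) or 2 (-0.57), and the fall of EXPA18 in sdg8hub2 passed in every setting tried.

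**Figure D3:**
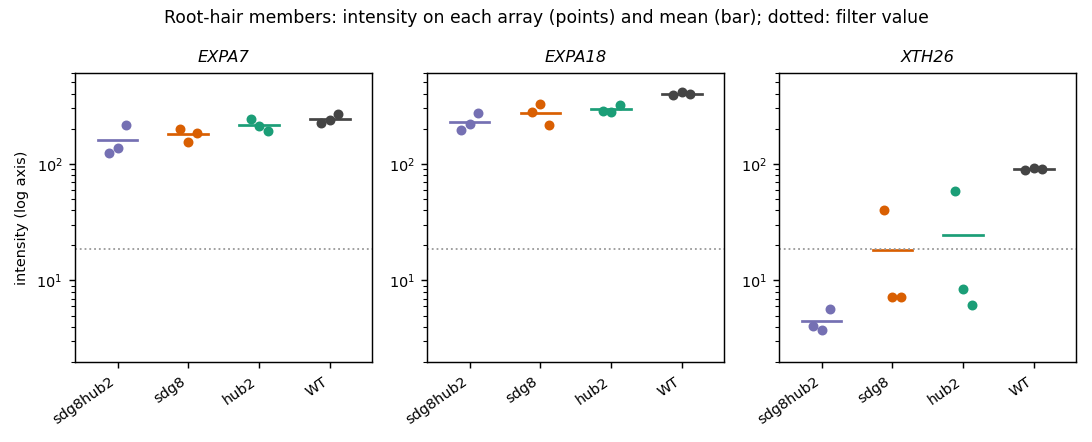
Intensity of EXPA7, EXPA18 and XTH26 on each array (points) with the group mean (bar), on a log axis; the dotted line marks the filter value of 18.6 intensity units. Every WT array of EXPA18 and XTH26 lies above every mutant array, and the 3 sdg8hub2 arrays of XTH26 lie at 3.72 to 5.67. XTH26 reached the signal limit mainly through WT and was not tested.

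The remaining alpha expansins did not change in any comparison. EXPA9 averaged 274 ± 17 in sdg8hub2, 332 ± 46 in sdg8, 331 ± 48 in hub2 and 298 ± 41 in WT (SD, n = 3 each). EXPA20 averaged 266 ± 76, 223 ± 77, 226 ± 22 and 208 ± 44 in the same order. Their smallest adjusted p in a comparison with WT was 0.387, that of EXPA20 in sdg8hub2.

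Of the 4 beta expansins, EXPB1 (AT2G20750) fell in the double mutant. Its signal was 84.0, 91.9 and 104 in sdg8hub2, 129, 106 and 117 in sdg8, 132, 108 and 164 in hub2, and 183, 184 and 131 in WT. The sdg8hub2 and sdg8 arrays lay below those of WT, by a log2 change of -0.82 in sdg8hub2 (SE 0.22, 1.76-fold, adjusted p = 0.0119) and of -0.48 in sdg8, which did not pass (adjusted p = 0.165). In hub2 the change was -0.30 (SE 0.22, adjusted p = 0.586). The fall in sdg8hub2 did not pass without WT replicates 1 (-0.74, adjusted p = 0.0641) or 2 (-0.74, adjusted p = 0.0623).

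EXPB3 (AT4G28250) did not change against WT but differed among the mutants. It had 1027, 879 and 881 intensity units in sdg8hub2, 1253, 1123 and 1230 in sdg8, 1460, 1057 and 1524 in hub2, and 1128, 1002 and 920 in WT. The sdg8hub2 arrays lay below all arrays of both single mutants and overlapped WT. The means were 929 ± 84.5, 1202 ± 69.6, 1347 ± 253 and 1016 ± 105 in the same order (SD, n = 3 each). EXPB3 was lower in sdg8hub2 than in hub2 by -0.52 (adjusted p = 0.00541) and than in sdg8 by -0.37 (adjusted p = 0.0468), and the interaction was -0.77 (SE 0.18, adjusted p = 0.0101). The difference from sdg8 was lost without any 1 of the WT or sdg8 arrays or without sdg8hub2 replicates 2 or 3, with values of -0.42 to -0.34 and adjusted p of 0.0513 to 0.14. Median centring, no filter, no variance trend or array weights also lost it (adjusted p of 0.0546 to 0.15). The interaction had an adjusted p of 0.0879 without the variance trend.

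EXPB2 and EXPB5 had low signals that scattered widely. EXPB2 had 59.5, 31.8 and 66.4 in sdg8hub2, 70.1, 59.1 and 42.0 in sdg8, 68.6, 62.7 and 7.15 in hub2, and 85.4, 77.2 and 61.8 in WT. EXPB5 ranged between 7.61 and 71.2 within sdg8hub2 alone. The standard errors of their log2 changes were 0.62 and 0.68, and neither changed in any comparison.

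The expansin-like genes gave 2 rises against WT. EXLA1 (AT3G45970) had 1147, 1216 and 1053 intensity units in sdg8hub2, 811, 918 and 829 in sdg8, 1011, 1007 and 908 in hub2, and 746, 861 and 886 in WT. Its sdg8hub2 arrays lay above all others, and its hub2 arrays above those of WT. The means were 1138 ± 81.9, 852.5 ± 57.4, 975 ± 58.1 and 831 ± 74.5 in the same order (SD, n = 3 each). EXLA1 rose 1.37-fold in sdg8hub2 against WT (adjusted p = 0.00311) and was 1.34-fold higher than in sdg8 (adjusted p = 0.0084), while its log2 changes in sdg8 and hub2 against WT were 0.04 (SE 0.10) and 0.23 (SE 0.10, adjusted p = 0.287). Both calls passed in every setting tried.

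EXLA3 (AT3G45960), which lies 2 places from EXLA1 in gene order on chromosome 3, rose in sdg8 by a log2 change of 1.23 (SE 0.41, adjusted p = 0.0477). The signals were low, at 85.3, 54.2 and 65.1 in sdg8hub2, 81.6, 79.6 and 90.0 in sdg8, 36.2, 35.5 and 64 in hub2, and 30.9, 58.2 and 25.3 in WT. The sdg8 arrays lay above all WT arrays, and those of sdg8hub2 overlapped WT with a log2 change of 0.91 (SE 0.41, adjusted p = 0.136). The call in sdg8 was lost without WT replicates 1 (1.12) or 3 (0.98), or any 1 of the sdg8 arrays (1.17 to 1.26) or sdg8hub2 arrays (1.23), with adjusted p of 0.0522 to 0.167. The call was also lost with no filter, only the groups compared, a replicate block or the second actin covariate (adjusted p of 0.0506 to 0.0854). On the log2(intensity + 64) scale, a planned setting, EXLA3 stood 0.545 higher in sdg8 than in WT (adjusted p = 0.0347). With no filter on that scale, a setting added after the data were seen, the adjusted p was 0.0419.

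EXLB1 (AT4G17030) was lower in sdg8hub2 than in sdg8, and EXLA2 changed in no comparison. EXLB1 had 343, 312 and 382 in sdg8hub2, 421, 498 and 497 in sdg8, 409, 324 and 487 in hub2, and 342, 383 and 331 in WT. The log2 difference between sdg8hub2 and sdg8 was -0.45 (SE 0.15, adjusted p = 0.043), and that of sdg8 from WT was 0.42 (adjusted p = 0.0595). The call was lost without WT replicates 1 (-0.45) or 3 (-0.45), sdg8 replicates 2 (-0.41) or 3 (-0.41), hub2 replicate 1 (-0.45), or sdg8hub2 replicates 1 (-0.45) or 2 (-0.38). Median centring, quantile normalization, no filter, no variance trend or array weights also lost it (adjusted p of 0.0524 to 0.0967). EXLA2 averaged 182 ± 25 in sdg8hub2, 124 ± 31 in sdg8, 173 ± 13 in hub2 and 162 ± 4.6 in WT (SD, n = 3 each), and its difference of 0.58 between sdg8hub2 and sdg8 had an adjusted p of 0.0595.

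Of the 8 XTHs tested, 1 changed in sdg8hub2 (XTH32), 1 in sdg8 (XTH18) and 1 in hub2 (XTH27), which is 12.5% each, beside 18.5%, 14.3% and 2.85% of all probe sets. XTH32 (AT2G36870), a member of the XTH clade whose enzymes are predicted to hydrolyse xyloglucan, rose in the double mutant. It had 1494, 1525 and 1430 intensity units in sdg8hub2, 938, 960 and 952 in sdg8, 865, 812 and 926 in hub2, and 894, 1102 and 789 in WT. Every sdg8hub2 array lay above every other array, and both single mutants overlapped WT. The means were 1483 ± 48.7, 950.2 ± 11.1, 868 ± 57.1 and 928 ± 159 in the same order (SD, n = 3 each). XTH32 was 1.61-fold higher in sdg8hub2 than in WT (adjusted p = 0.000103), 1.56-fold higher than in sdg8 (adjusted p = 0.000352) and 1.71-fold higher than in hub2 (adjusted p = 3.43e-05). The single-mutant changes were 0.05 in sdg8 and -0.09 in hub2 (SE 0.11 each), and the interaction was 0.73 (SE 0.16, adjusted p = 0.00576). The interaction had an adjusted p of 0.0509 without the variance trend, and the other 3 calls passed in every setting tried.

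XTH18 (AT4G30280), one of a group of closely related XTHs known from roots, fell in sdg8. The signal was 281, 281 and 365 in sdg8hub2, 236, 277 and 187 in sdg8, 260, 447 and 324 in hub2, and 462, 457 and 396 in WT. The arrays of sdg8hub2 and of sdg8 lay below those of WT, and those of hub2 overlapped WT. XTH18 fell 1.90-fold in sdg8 (adjusted p = 0.00127, passed in every setting tried). The log2 change was -0.51 in sdg8hub2 (SE 0.18, adjusted p = 0.0559) and -0.38 in hub2 (SE 0.18, adjusted p = 0.331), and the interaction was 0.80 (SE 0.26, adjusted p = 0.0716). Its direct neighbour on chromosome 4, XTH19 (AT4G30290), averaged 370 ± 5.0 in sdg8hub2, 380 ± 47 in sdg8, 351 ± 16 in hub2 and 412 ± 17 in WT (SD, n = 3 each) and changed in no comparison.

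XTH27 (AT2G01850, also EXGT-A3), known from developing xylem vessels of leaves, fell in hub2. It had 5262, 5926 and 6050 in sdg8hub2, 6402, 6627 and 6929 in sdg8, 4680, 4174 and 4628 in hub2, and 5576, 5726 and 6279 in WT. Every hub2 array lay below every other array, and every sdg8 array above every other. The means were 5746 ± 423.5, 6653 ± 264.5, 4494 ± 278 and 5860 ± 370.0 in the same order (SD, n = 3 each). XTH27 fell 1.30-fold in hub2 against WT (adjusted p = 0.0117), and sdg8hub2 was 1.28-fold higher than hub2 (adjusted p = 0.0042), with log2 changes against WT of -0.03 in sdg8hub2 and 0.18 in sdg8 (SE 0.08 each). The fall in hub2 did not pass without WT replicate 3 (-0.33, adjusted p = 0.0817), without hub2 replicate 2 (-0.33, adjusted p = 0.0505) or with the first actin pair as a covariate (adjusted p = 0.0891), and passed with the second (adjusted p = 0.0092). Without the variance trend the fall in hub2 had an adjusted p of 0.108.

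XTH16 (AT3G23730) and XTH33 (AT1G10550), whose protein is predicted to be anchored in the plasma membrane, were lower in sdg8hub2 than in hub2. XTH16 had 494, 553 and 657 in sdg8hub2, 767, 898 and 708 in hub2, and 625, 868 and 707 in WT, and the sdg8hub2 and hub2 arrays did not overlap. It differed by -0.48 between sdg8hub2 and hub2 (adjusted p = 0.026), a call lost without hub2 replicates 1 (-0.50) or 2 (-0.39) or sdg8hub2 replicates 1 (-0.39) or 2 (-0.47). Median centring, no variance trend or the first actin covariate also lost it (adjusted p of 0.0604 to 0.106). XTH33 had 136, 179 and 223 in sdg8hub2, 260, 282 and 224 in hub2, and 227, 222 and 189 in WT. Its difference of -0.53 between sdg8hub2 and hub2 (adjusted p = 0.0448) was lost without WT replicates 1 or 2 or sdg8 replicate 1 (-0.53 each), hub2 replicates 1 (-0.52) or 2 (-0.46), or sdg8hub2 replicates 1 (-0.35) or 2 (-0.55). Median centring, quantile normalization, no filter or no variance trend also lost it. So did a replicate block, either actin covariate or a fit of only the groups compared (adjusted p of 0.0508 to 0.0838 over all these settings). In sdg8, XTH16 averaged 634 ± 110 and XTH33 averaged 225 ± 16 (SD, n = 3).

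XTH20 and XTH21 changed in no comparison. XTH20 averaged 144 ± 14 in sdg8hub2, 181 ± 40 in sdg8, 118 ± 21 in hub2 and 118 ± 12 in WT (SD, n = 3 each), with an adjusted p of 0.0633 in sdg8 against WT. XTH21 had 17.7, 2.00 and 28.1 in sdg8hub2, 37.7, 5.86 and 19.1 in sdg8, 59.6, 46.1 and 23.6 in hub2, and 36.3, 47.8 and 8.30 in WT, with the widest standard error of the 24 genes. XTH21 and XTH26, at mean signals of 27.7 and 34.5, were the members nearest the limit of 20 intensity units. Below that limit lay XTH29 at 12.8, EXPA24 at 8.90, EXPA21 at 6.77 and EXLB2 at 5.39.

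Set against the single mutants, the double mutant differed from sdg8 in 6 of the 24 genes, 2 higher and 4 lower, where 14.4% of all probe sets differed (6.70% higher and 7.72% lower). It differed from hub2 in 8, 3 higher and 5 lower, where 17.0% did (7.17% higher and 9.85% lower). After median centring the splits were 2 higher and 2 lower against sdg8 and 3 and 3 against hub2, and after quantile normalization 3 and 3 against sdg8 and 2 and 4 against hub2. In those fits 12.7%, 15.7%, 14.1% and 16.8% of all probe sets were called, in the same order. Arrays did not overlap in 10 of the 24 genes against sdg8 (29.5% of all probe sets) and in 11 against hub2 (31.9%). EXPA16 and EXPB3 were lower and XTH32 was higher in sdg8hub2 than in both single mutants, comparisons that share the sdg8hub2 arrays. The share of all probe sets called in both was not counted. For EXPB3 the difference from sdg8 (adjusted p = 0.0468) was lost in 12 of 24 settings. The interaction was called for 4 genes, with 6.46% of all probe sets called (3.05% above and 3.41% below 0): EXPA8, EXPA15 and EXPB3 lay below the sum of the single-mutant changes and XTH32 above it. For EXPA8 the sum was 0.98 and the double mutant stood at -0.04, and for EXPB3 the sum was 0.64 and the double mutant stood at -0.13. The count for sdg8hub2 against hub2 was 5 without hub2 replicate 2, sdg8hub2 replicate 1 or sdg8hub2 replicate 2 (15.1%, 14% and 12.4% of all probe sets). That for sdg8 against WT was 3 without WT replicate 1 or sdg8 replicate 3 (9.72% and 12.3%) and 2 without WT replicate 3 (10.9%). That for hub2 against WT was 1 without WT replicate 3 (1.36%).

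**Figure D4:**
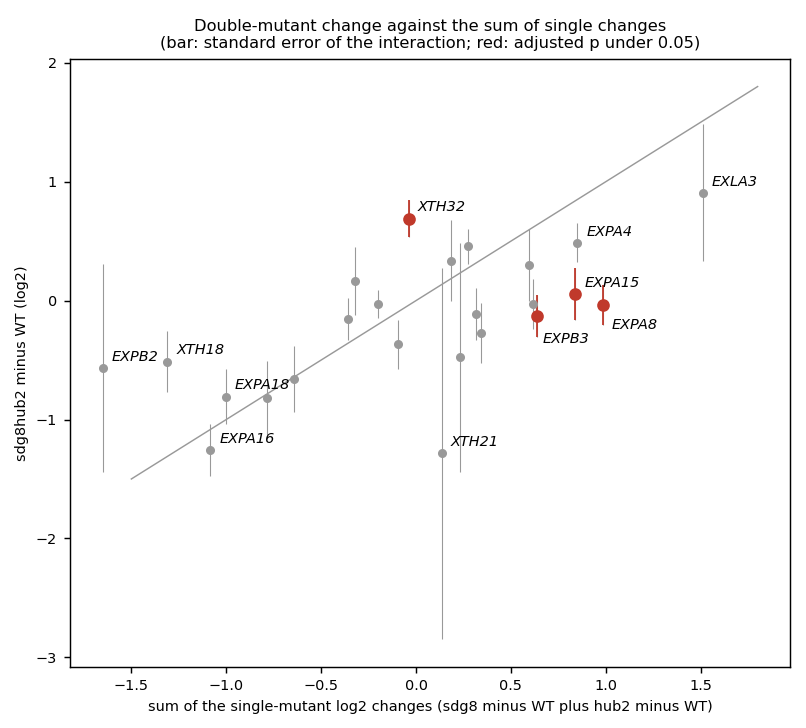
Double-mutant change against WT (vertical axis, log2) and the sum of both single-mutant changes (horizontal axis, log2) for the 24 genes tested; the line marks equal values, bars give the standard error of the interaction, and red points have an adjusted p under 0.05. EXPA16 lies near the line at -1.26 against a sum of -1.08, EXPA8, EXPA15 and EXPB3 lie under it, and XTH32 lies above it at 0.69 against a sum of -0.04.

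In the test of any difference among the 4 groups, 11 of the 24 genes were called, beside 30.3% of all probe sets. They were EXPA4, EXPA8, EXPA15, EXPA16, EXPA18, EXPB1, EXPB3, EXLA1, XTH18, XTH27 and XTH32, which makes 8 of 16 expansin and expansin-like genes and 3 of 8 XTHs.

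Other genes of the wall were followed from listed entries, few of which the annotation names. Of 5 measured CSLC genes, whose products make the xyloglucan backbone, CSLC5 (AT4G31590) fell in sdg8hub2 and in sdg8. CSLC5 had 259, 222 and 288 intensity units in sdg8hub2, 321, 272 and 328 in sdg8, 352, 307 and 327 in hub2, and 428, 405 and 422 in WT. Its log2 change was -0.72 in sdg8hub2 (adjusted p = 0.000748), -0.45 in sdg8 (adjusted p = 0.0307) and -0.35 in hub2, where it did not pass, and the other 4 CSLC genes changed in no comparison. Of 3 measured pectin methylesterase entries, 2 were tested, and PME61 changed in no comparison. ATPMEPCRB (AT4G02330), a pectin methylesterase gene, had 464, 471 and 489 in sdg8hub2, 207, 236 and 195 in sdg8, 215, 199 and 225 in hub2, and 365, 283 and 288 in WT. Both single mutants lay below WT and the double mutant above it. ATPMEPCRB rose by 0.62 on the log2 scale in sdg8hub2 (adjusted p = 0.00372) and fell by 0.55 in sdg8 (adjusted p = 0.0121) and 0.54 in hub2 (adjusted p = 0.0432), with an interaction of 1.70 (adjusted p = 1.15e-05). COB, which encodes a GPI-anchored protein of oriented cellulose deposition and was the only cellulose entry of 14 measured, did not change. The calls of these listed genes and of the cell type markers were not checked under the other settings.

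Markers of other cell types were few in the annotation. Sums of their signals are weighted to the probe sets with the highest values and are not levels of a cell type. The summed signal of 4 guard cell lineage genes, of 11 listed, was 2451 to 2982 in sdg8hub2, 3898 to 4669 in sdg8, 4055 to 4570 in hub2 and 4486 to 4610 in WT. FMA (AT3G24140), which encodes a regulator of guard cell fate, fell by 0.87 on the log2 scale in sdg8hub2 against WT (adjusted p = 0.00264), and AT1G22690 fell by 0.71 (adjusted p = 1.12e-05). MUTE and SPCH, which encode regulators of earlier steps of that lineage, stood at -2.15 (adjusted p = 0.226) and 0.305 (adjusted p = 0.807), and AT1G22690 makes up most of the sum, with a mean of 2604 in sdg8hub2 and 4243 in WT. That of 3 mesophyll genes, of 7 listed, was 43810 to 45300 in sdg8hub2, 50500 to 59970 in sdg8, 48790 to 53300 in hub2 and 42330 to 47630 in WT. Its members did not move together: in sdg8 against WT, RCA rose by 0.30 and LHCB4.1 by 0.36 on the log2 scale while LHCB4.2 fell by 0.42, in hub2 LHCB4.2 rose by 0.82 and the other 2 did not change, and in sdg8hub2 none of the 3 changed (smallest adjusted p = 0.231). MUTE was low and scattered, at 22.2, 1.97 and 5.58 intensity units in sdg8hub2 and 61.4, 10.8 and 31.8 in WT. Whether any marker was absent from a group was not tested, since no detection calls were used. The part of these markers in the changes of the expansins and XTHs was not tested.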

How the data were processed

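The authors deposited 1 table of linear intensities with a column for each array. The submitters' processing notes name MAS5 and affy without roles or versions, and the labels name an Affymetrix labelling kit in one field and another manufacturer's labelling in a second. The mean after trimming 2% of values at each end was 500 on each of the 12 arrays. Values under 1.18 intensity units, the table's 1st percentile, were set to it before log2 was taken. The 64 control probe sets and probe sets at or below the 20th percentile of mean log2 value (18.6 intensity units) were left out, which left 18196. limma 3.58.1 under R 4.3.3 fitted a mean per group with an intensity trend in the variances. The 6 contrasts and a moderated F test over the 4 groups were two-sided, with Benjamini-Hochberg adjustment over all probe sets tested. The procedure was tested on simulated data with independent normal spread and changes placed in sdg8 only. Such data cannot check array effects or interaction calls. Names come from the platform annotation, updated through a RefSeq table of the TAIR10.1 assembly. Array values are printed for genes changed in a mutant against WT and for those changed only between mutants. They are also printed, chosen after their values were seen, for EXPB2, XTH21, XTH26 and MUTE. The members, lists and this rule were chosen with earlier results of these data known. Same-numbered arrays of different groups did not deviate together (r of -0.127 to 0.036), so the fits have no replicate block. The number of arrays limits the precision. Scalings, filters, variance settings, actin covariates, array weights and each array left out were tried as alternatives.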

Additional observations from a re-analysis of the deposited data

Results flagged for a closer look

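In 4 genes the effect of losing both regulators differed from the sum of the single effects by the interaction test itself (limma, adjusted p under 0.05). By that test 6.46% of all probe sets were called. Only the EXPA8 call passed in every setting tried. Without the variance trend the adjusted p was 0.172 for EXPA15, 0.0879 for EXPB3 and 0.0509 for XTH32. The EXPA15 call was also lost in 8 of the fits that left out 1 array. In the main fit, the effect of the hub2 mutation in these genes was not the same in the sdg8 background as where SDG8 was intact. The interaction on the log2 scale was -1.02 for EXPA8 (SE 0.17), -0.78 for EXPA15 (SE 0.22), -0.77 for EXPB3 (SE 0.18) and 0.73 for XTH32 (SE 0.16). In EXPA8 the hub2 mutation went with a log2 difference of 0.77 where SDG8 was present, and sdg8hub2 stood at -0.25 against sdg8 (adjusted p = 0.181). In XTH32 sdg8hub2 stood at 0.64 against sdg8, while hub2 stood at -0.09 against WT. Groups of 3 arrays were not searched for single arrays that stand apart.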

How the results depend on the processing

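Of 34 calls of single genes in the 6 comparisons, 17 passed in every setting that gave a value, 17 were lost in at least 1, and 0 changed sign. Without the variance trend, 3 genes changed in sdg8 against WT (6 with it), 1 in hub2 (3), 3 in sdg8hub2 against sdg8 (6), 5 in sdg8hub2 against hub2 (8) and 1 for the interaction (4). The shares of all probe sets fell as well, to 9.78%, 0.698%, 9.79%, 11.9% and 2.91% in the same order. With the difference of the first actin pair in the fit, 5 changed in sdg8hub2 against hub2 (15.9% of all probe sets). With the second pair, a setting added after the data were seen, 7 changed (17.1%). Leaving out 1 array at a time gave 5 to 9 genes in sdg8hub2 against WT, 2 to 7 in sdg8, 1 to 3 in hub2, 4 to 6 in sdg8hub2 against sdg8, 5 to 8 against hub2, 3 to 6 for the interaction and 10 to 14 for any difference. In these fits the share of all probe sets was 13.5% to 20% in sdg8hub2, 9.72% to 15.7% in sdg8 and 1.15% to 3.04% in hub2. For sdg8hub2 against sdg8 and hub2 it was 11% to 15.9% and 12.4% to 17.9%. It was 4.42% to 6.3% for the interaction and 25.7% to 30.2% for any difference. All other settings stayed within 1.5 times of the counts given in Results. With the replicate number as a block, the counts were 7 in sdg8hub2, 5 in sdg8 and 3 in hub2 against WT (17.9%, 13.7% and 2.46% of all probe sets). They were 6 and 6 for sdg8hub2 against sdg8 and hub2 (14% and 16.6%), 4 for the interaction (5.95%) and 10 for any difference (29.5%). Same-numbered arrays share only a number, and 1 of 12 arrays correlated best with an array of its own number. The block ended the calls of EXLA3 in sdg8 and of EXPA4 and XTH33 in sdg8hub2 against hub2. Median centring moved the median of all probe sets by 0.083 or less. The choice of another probe set per gene was not run, since each gene has 1. Genes near the background (XTH21, XTH26, EXPB2, EXPB5, EXLA3) have the least certain values, as no detection calls were used.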
